A study of Mus musculus with 4 samples.

Results

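The dimethyl mark of lysine 79 of histone H3 (H3K79me2) was mapped in bone marrow-derived dendritic cells (BMDCs), and the peaks described here are those that lay far from genes. A distal intergenic peak is a peak of chromosomes 1 to 19 that lay wholly more than 10 kb from every protein-coding gene body and overlapped no lncRNA gene body, by the RefSeq genes of GRCm38. Of 9805 peaks called in lysine-treated cells 1133 were distal, and of 11926 peaks called in PBS-treated cells 1499 were distal, 2632 of 21731 in all. The rule uses position alone and no peak height or width.

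BMDCs are antigen-presenting cells grown from bone marrow, here of C57BL/6J mice, and were kept in RPMI 1640 with serum. The treated culture received the amino acid lysine at 18 mM for 6 h and the control culture PBS, for which no time is stated. Chromatin was fixed with formaldehyde, and the 4 samples are an H3K79me2 library and an input library of each condition. How many mice the cells came from is not stated. With 1 H3K79me2 library per condition there is no replicate check and no test: every difference is between 2 libraries, and the effect of lysine cannot be told apart from library depth, which the peak lists do not give. Fold (a ratio to local background) and −log10 q are the authors' values for a peak and describe it within its own list. Ranges in parentheses after a share are exact 95% intervals (Clopper-Pearson), for counting error alone. As a check of the cell label, 10 of 23 marker genes of myeloid and dendritic cells carried a peak on the gene body in lysine and 16 of 23 in PBS, where 32.9% of all protein-coding genes did in lysine and 35.6% in PBS. Read against these shares, the check says little about the cell type. Itgax, Cd86 and Csf1r were among those with a peak in both lists, whereas H2-Aa, Ccr7, Irf4, Spi1, Csf2rb, Adgre1 and Lyz2 had none in either. Of 16 markers of other cells, 1 carried a peak in lysine (Syp) and 2 in PBS (Syp and S100a8). The part of cell composition in the differences below was not tested.

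H3K79me2 is written by the methyltransferase Dot1l and is best known from the bodies of transcribed genes, where it is densest behind the start. It has also been described at a subset of enhancers, the distal elements from which transcription factors act on genes at a distance. In myeloid cells many of the genes that respond quickly to stimuli or fix cell identity have enhancers spread over long intergenic stretches.

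A few distal peaks reached into the stretch before a gene's start in the table of RefSeq start windows used here, which lacks some genes. Some are shown first, because their letters can be read from that table. Of 32544 windows running from 250 bases before to 50 bases after a RefSeq gene start, 13 overlapped a distal peak. All 13 belonged to lncRNA genes whose body the peak did not reach. The rule itself shuts out windows of protein-coding genes and peaks on a lncRNA body. Each overlap therefore lay in the bases before the start. No miRNA lay under a distal peak. The 3 windows below belong to peaks next to Ccr1, Ier5 and Tnfaip3, and sequences and positions are those of RefSeq on GRCm38.p6. They are written 5′ to 3′ on the strand of the lncRNA, with the bases under the distal peak in capitals. The Gm51701 window (chr9:123924898-123925197, plus strand) lay 123 bases deep under a lysine peak of fold 4.88, 37.1 kb from Ccr1, a receptor for inflammatory chemokines. Gm9530 (chr1:155083215-155083514, minus strand) had 240 bases under a lysine peak of fold 4.77, 12.8 kb from Ier5, an immediate early gene. Gm51814 (chr10:19062529-19062828, plus strand) had 133 bases under a PBS peak of fold 5.31, 46.7 kb from Tnfaip3, which encodes the NF-kB inhibitor A20.
Gm51701: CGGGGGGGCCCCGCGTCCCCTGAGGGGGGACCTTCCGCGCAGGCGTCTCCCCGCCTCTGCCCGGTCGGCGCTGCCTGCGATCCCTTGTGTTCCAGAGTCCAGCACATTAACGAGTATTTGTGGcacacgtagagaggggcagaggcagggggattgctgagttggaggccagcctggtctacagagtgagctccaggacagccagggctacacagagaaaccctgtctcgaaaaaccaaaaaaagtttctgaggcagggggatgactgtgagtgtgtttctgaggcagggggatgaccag
Gm9530: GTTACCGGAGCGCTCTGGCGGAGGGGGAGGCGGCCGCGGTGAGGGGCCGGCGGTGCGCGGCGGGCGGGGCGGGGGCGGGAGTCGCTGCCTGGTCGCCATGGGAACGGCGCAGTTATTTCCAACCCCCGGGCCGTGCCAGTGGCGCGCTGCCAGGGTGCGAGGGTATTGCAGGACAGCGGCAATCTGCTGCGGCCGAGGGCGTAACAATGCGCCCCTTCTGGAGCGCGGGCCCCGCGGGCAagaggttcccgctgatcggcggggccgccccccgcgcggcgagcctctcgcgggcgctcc
Gm51814: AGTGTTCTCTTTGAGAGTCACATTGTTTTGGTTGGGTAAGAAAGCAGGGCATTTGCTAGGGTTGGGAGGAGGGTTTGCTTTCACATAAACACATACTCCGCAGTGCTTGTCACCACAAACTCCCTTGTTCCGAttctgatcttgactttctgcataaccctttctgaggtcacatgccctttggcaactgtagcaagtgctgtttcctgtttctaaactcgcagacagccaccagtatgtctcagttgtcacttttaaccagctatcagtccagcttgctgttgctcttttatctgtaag
These windows differ widely in composition. Gm9530 had 43 CpG dinucleotides and 76.3% G or C, the highest of the 13, Gm51701 had 14 and 61.3%, and Gm51814 had 3 and 45.3%. Over the 13 windows the median was 4 CpG and 48.7% G or C, compared with 7 CpG and 53.0% over all windows. The AP-1 motif TGANTCA, on either strand, was in 1 of the 13 windows and in 7.79% of all, and the PU.1 motif GAGGAAGT, on either strand, in 0 of the 13 and in 3.11% of all. None of the 3 windows printed above holds either motif.

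Distal peaks were a minor class in both libraries, with fewer called in lysine. They made up 11.7% (11 to 12.3) of the lysine peaks of chromosomes 1 to 19 and 12.7% (12.1 to 13.3) of the PBS peaks. Peaks on protein-coding genes made up 74.1% in lysine and 72.2% in PBS, peaks within 10 kb of one 9.83% in lysine and 10.6% in PBS, and peaks farther away on a lncRNA gene 4.37% in lysine and 4.48% in PBS. The lysine list had 0.756 of the PBS number of distal peaks and 0.725 of their covered length, 551 kb in lysine against 759.9 kb in PBS. For all other peaks of these chromosomes the ratios were 0.832 for number and 0.805 for covered length. Distal peaks were fewer in lysine on 17 of 19 chromosomes: chromosome 2 had 93 in each list, and chromosome 17 had 43 in lysine and 40 in PBS. The lysine list is shorter as a whole (9713 against 11812 peaks of these chromosomes), so this count does not set distal peaks apart. As a share of all peaks of the chromosome, distal peaks went both ways. On chromosome 10 the share was 15.3% in lysine and 19.3% in PBS, and on chromosome 13 it was 21.4% and 19.4%. With the PBS list held to as many peaks as the lysine list, by −log10 q, the ratios for distal peaks were 0.947 for number and 0.898 for covered length. The matching ratios for other peaks are not given here, so these 2 values cannot be called particular to distal peaks.

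Distal peaks were short, and shorter than other peaks in both lists. The median width was 405 bp in lysine (quartiles 334 and 512) and 422 bp in PBS (345 and 535.5). Other peaks had medians of 458 bp in lysine and 462 bp in PBS. A width of 1 kb or more was reached by 63 distal peaks (5.56%, 4.3 to 7.06) in lysine, against 8.49% of all lysine peaks of these chromosomes, and by 100 (6.67%, 5.46 to 8.05) in PBS, against 9.87% of all PBS peaks. The ratio of these wide distal peaks, lysine over PBS, was 0.63, against 0.715 for other peaks. Fold was also lower for distal than for other peaks of the same list, with medians of 4.27 for distal and 4.53 for other peaks in lysine and 4.34 for distal and 4.56 for other peaks in PBS. Few were compound: 18 lysine and 27 PBS distal peaks held more than 1 narrow block in the gapped lists, and 40 lysine and 50 PBS peaks held none.

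**Figure D1:**
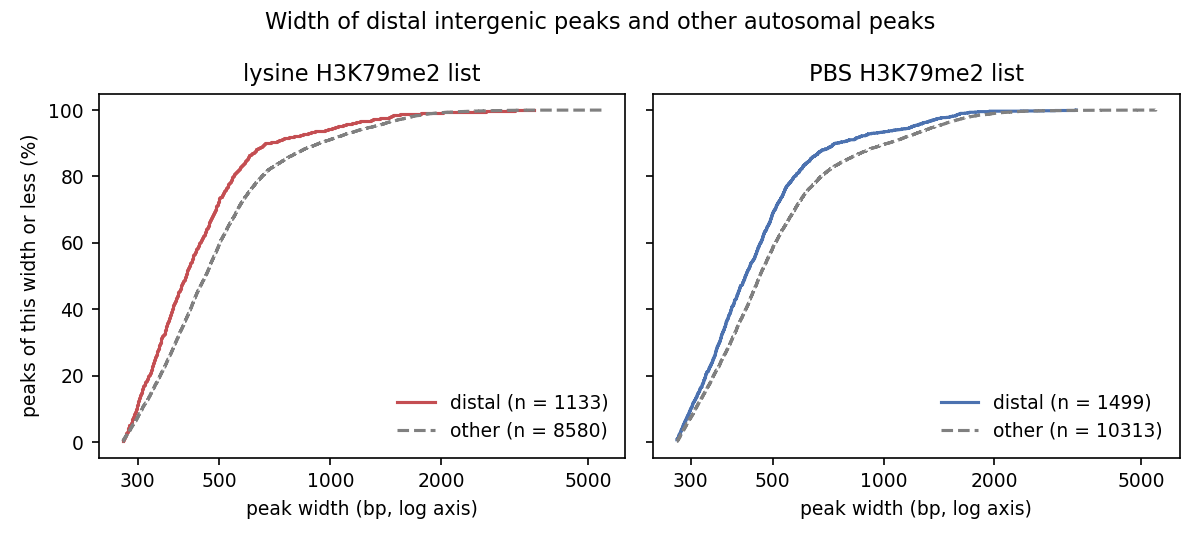
Share of peaks (%, vertical axis) up to a given width (bp, log horizontal axis) for distal intergenic peaks (solid line) and other peaks of chromosomes 1 to 19 (dashed line), with the lysine list on the left and the PBS list on the right. The distal line lies left of the dashed line in both panels over most of the range, with medians of 405 against 458 bp in lysine and 422 against 462 bp in PBS.

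The widest lysine distal peaks lay together near the start of chromosome 9, a stretch treated below, with widths of 3568, 3175 and 2884 bp. Next came a peak of 2651 bp at chr4:133940460-133943110, 21.6 kb downstream of Hmgn2, which encodes a nucleosome-binding protein. Its PBS partner was nearly congruent (2715 bp, chr4:133940446-133943160). The fifth lay 23.1 kb upstream of Dusp1, a phosphatase that shuts off MAP kinases (2646 bp, chr17:26531567-26534212). It overlapped a PBS peak of 3239 bp that was not distal. Of the PBS peaks the widest lay 14 kb downstream of Fgd2, an activator of the GTPase Cdc42 (3335 bp, chr17:29393491-29396825), where the lysine peak measured 2028 bp. The second was a peak of the chromosome 9 stretch (3311 bp). The third was a peak 36.5 kb upstream of Runx1 (2920 bp, chr16:92862562-92865481), which 2 lysine peaks overlapped. The Hmgn2 peak and a peak of 2366 bp 116 kb from the predicted gene Gm2244 followed. The Gm2244 peak had a lysine partner of 2450 bp.

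The most enriched distal peaks were compact and were all found in both libraries. In both lists the highest fold belonged to a peak 12.8 kb upstream of Prrc2b, which encodes an RNA-binding protein. It measured 521 bp with a fold of 11.4 in lysine (chr2:32137732-32138252) and 629 bp with a fold of 11.6 in PBS (chr2:32137642-32138270). A peak 109 kb downstream of Hlx, a homeobox gene of blood cells, was the third most enriched in lysine with a fold of 8.82 and the second in PBS with 10.5. The other 3 lysine peaks of the top 5 lay next to Nrg4, a growth factor gene (9.54), 4932414N04Rik (8.69) and Tmem131l (8.34). In PBS the top 5 also held peaks next to Trib1 (9.7) and Fpr2, a formyl peptide receptor gene (9.1).

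Fewer distal peaks than other peaks had a partner in the other library. Of the lysine distal peaks 733 (64.7%, 61.8 to 67.5) overlapped a PBS peak by at least 1 bp, against 75.5% of all lysine peaks of these chromosomes. Of the PBS distal peaks 731 (48.8%, 46.2 to 51.3) overlapped a lysine peak, against 62% of all PBS peaks. Peaks that were not distal had 76.9% in lysine and 64.0% in PBS. Nearly all partners were themselves distal, 723 in each list, and 10 lysine and 8 PBS distal peaks had a partner that was not. Peaks without a partner were not near misses: their median gap to the other list was 25.7 kb in lysine and 35.4 kb in PBS. They were narrower, with medians of 357.5 bp in lysine and 379.5 bp in PBS, against 442 bp in lysine and 473 bp in PBS for shared distal peaks.

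Strength within the list sorted shared from unshared peaks. In the lysine list the shared share was 39.9% (32.4 to 47.7) at a −log10 q of up to 2, 61.8% (55.4 to 68.0) from 3 to 4, 93.9% (87.1 to 97.7) from 6 to 8, and 18 of 18 above 12. In the PBS list it was 21.8% (15.8 to 28.9), 42.2% (36.8 to 47.8), 78.8% (71.4 to 85.0) and 31 of 31 in the same classes. At equal −log10 q distal peaks were still shared less often than other peaks in most classes, with 53.6% against 63.3% from 2 to 3 in lysine and 28.8% against 41.1% in the same class in PBS. From 6 to 8 both kinds had 93.9% in lysine, and above 12 both had 100% there. Distance made less difference: by distance from the nearest gene the share ran between 56.2% and 68.5% in lysine and between 46.4% and 49.9% in PBS. Wide peaks of 1 kb or more were shared in 84.1% (72.7 to 92.1) of cases in lysine and 67.0% (56.9 to 76.1) in PBS.

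**Figure D2:**
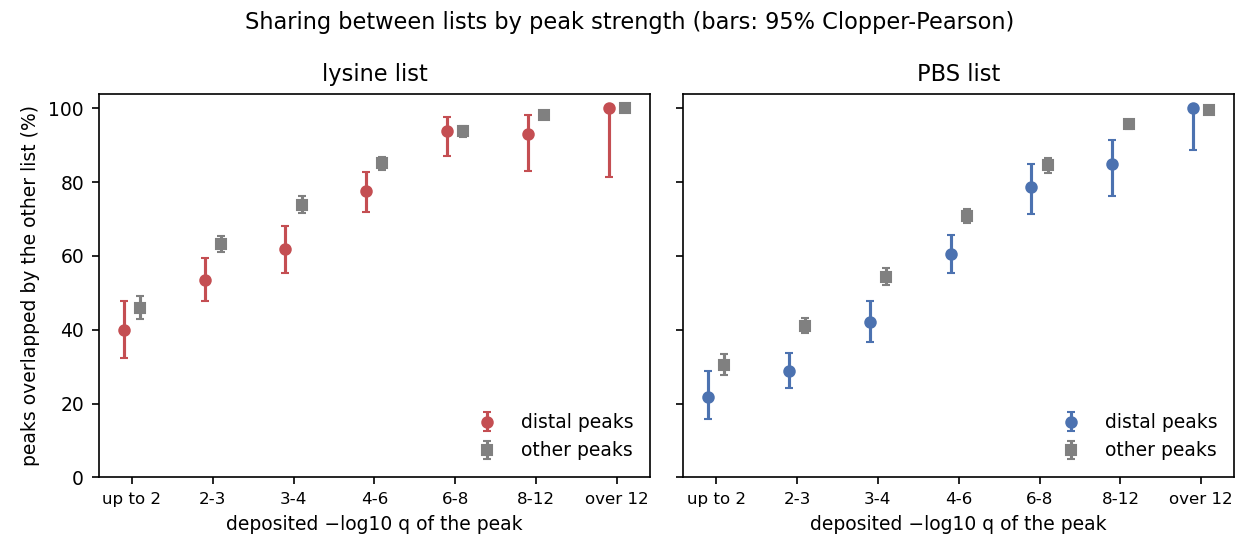
Share of peaks overlapped by at least 1 bp by the other list (%, vertical axis) in classes of the deposited −log10 q (horizontal axis), for distal peaks (circles) and other peaks of chromosomes 1 to 19 (squares), lysine list on the left and PBS list on the right. Bars are 95% Clopper-Pearson intervals; circles run from 39.9% to 100% in lysine and from 21.8% to 100% in PBS.

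Where a distal peak was called in both libraries it tended to be slightly narrower in lysine. In 730 pairs of exactly 1 lysine and 1 PBS peak, the lysine peak was narrower in 425 (58.2%) and wider in 303, with a median difference of -30 bp, lysine minus PBS (quartiles -125 and 64.75). Over all such pairs of these chromosomes 57.2% were narrower in lysine, a share close to that of distal peaks.

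Among the widest distal peaks of 1 list alone, those in lysine had folds of 3.84 to 4.26, below the lysine distal median. They lay next to Rpn1, a subunit of the oligosaccharyltransferase (1800 bp, fold 3.98), Litaf, an endosomal gene induced by lipopolysaccharide (1543 bp, fold 4.13), D630003M21Rik (1308 bp), Runx3 (1173 bp) and Cav2, a caveolin gene (1172 bp). In PBS the widest unpartnered peaks had folds of 3.84 to 5.12, around the PBS distal median of 4.34. They lay next to Gsdmc, a gasdermin gene (1615 bp, fold 4.64), Ado (1587 bp), Slc15a1 (1587 bp), Zfp36l1, which encodes an RNA decay factor (1567 bp, fold 5.12), and Inhba (1517 bp). The Inhba peak lay on the transcribed pseudogene B230303A05Rik. The nearest PBS peak was 4.72 kb from the Rpn1 peak and 101 kb from the Cav2 peak. The nearest lysine peak was 206 kb from the Gsdmc peak and 10.3 kb from the Inhba peak.

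Distal peaks thinned out steadily with distance from genes in both libraries. The median distance to the nearest protein-coding gene was 36.4 kb in lysine (quartiles 19.1 and 79.6) and 35.1 kb in PBS (19.1 and 79). Distances over 100 kb were found for 226 lysine peaks (19.9%) and 306 PBS peaks (20.4%). To read these numbers against the room available, territory was measured as all positions that meet the same distance and lncRNA conditions between the first and last protein-coding gene of a chromosome. It came to 1063 Mb, 43.7% of that span. Per Mb of territory there were 1.06 distal peaks in lysine and 1.4 in PBS, against 6.28 peaks per Mb in lysine and 7.55 in PBS in the rest. At 10 to 25 kb from genes the density was 2.6 in lysine and 3.51 in PBS, at 50 to 100 kb it was 1.35 in lysine and 1.64 in PBS, and over 200 kb, where 41.0% of the territory lies, it was 0.202 in lysine and 0.271 in PBS. The order of the classes was the same in both lists.

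**Figure D3:**
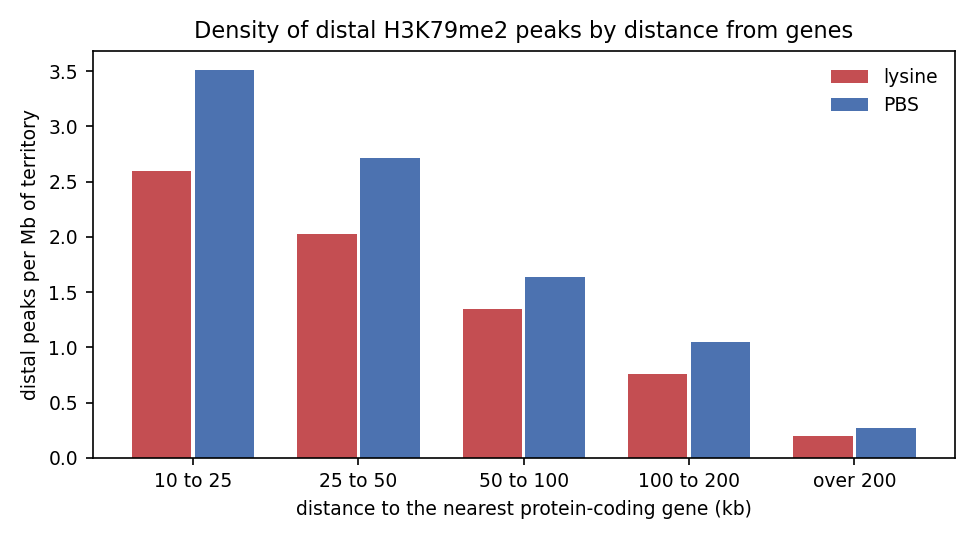
Distal peaks per Mb of territory (vertical axis, from 0) in 5 classes of distance to the nearest protein-coding gene (kb, horizontal axis), with lysine (red) left of PBS (blue) in each class. Density falls off from 2.6 to 0.202 per Mb over the classes in lysine and from 3.51 to 0.271 in PBS, and the lysine bar is the lower one in every class.

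Upstream territory was more densely occupied than downstream territory. Where the nearest gene had a known strand, 509 lysine peaks lay upstream (1.19 per Mb of territory) and 362 downstream (0.948 per Mb). In PBS 656 lay upstream (1.53 per Mb) and 482 downstream (1.26 per Mb). The strand was not available for the genes nearest to 254 lysine and 351 PBS peaks. Within 10 kb of a lncRNA gene lay 283 distal peaks (25%) in lysine and 370 (24.7%) in PBS. Another RefSeq feature, such as a pseudogene or a tRNA gene, lay under 31 lysine peaks (2.74%) and 49 PBS peaks (3.27%).

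The farthest peak seen in both libraries lay 1253 kb upstream of Zeb2, a transcriptional repressor that acts in dendritic cell development. It was 539 bp wide in lysine (chr2:46370915-46371453) and 620 bp in PBS (chr2:46370819-46371438). Another of the farthest lysine peaks lay 1100 kb from Adam6a, within the immunoglobulin heavy chain locus, and had no PBS partner. In PBS a peak 1812 kb from G6pd2 and a peak 1086 kb from Cited2 had no lysine partner. At the 10 kb limit itself, the nearest distal peaks lay 10009 bp from Tgs1 in lysine and 10025 bp from Inhba in PBS. The latter is the unpartnered Inhba peak named above, on the pseudogene B230303A05Rik. Just outside the rule were peaks 10000 bp from Ninj2 in lysine and 9991 bp from Arrdc4 in PBS.

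The genes nearest to distal peaks numbered 1244, which is 6.02% of the 20665 protein-coding genes of these chromosomes, and 1242 of them are among the 11898 genes nearest to some territory (10.4%). Lysine peaks had 835 such genes and PBS peaks 1033, with 624 in both, 211 in lysine alone and 409 in PBS alone. More lysine than PBS peaks were found at 277 genes, fewer at 550 and equal numbers at 417. Nearest is a matter of position alone, and whether a peak acts on that gene was not tested. Such genes carried H3K79me2 themselves more often than others: 432 of 835 (51.7%, 48.3 to 55.2) had a lysine peak on the body, against the 32.9% of all protein-coding genes, and 579 of 1033 (56.1%, 53.0 to 59.1) had a PBS peak, against 35.6%. Among all genes nearest to some territory the shares were 28.9% in lysine and 31.9% in PBS. The same order was found in each of 4 classes of gene length. Among genes under 10 kb, 41.4% (34.2 to 49.0) of those nearest to a lysine distal peak had a lysine peak on the body, against 12% of those with territory but no such peak, and the PBS shares were 42.9% and 12.9%. For genes over 100 kb they were 60.3% and 35.4% in lysine, and 63.9% and 40.4% in PBS.

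The genes nearest to the most distal peaks were Klf6, Alkbh8, Btg1, Runx1 and Trib1. Klf6, a zinc finger factor of the immediate early class, was nearest to the most, 9 in lysine and 11 in PBS. The difference, lysine minus PBS, was -2 and depended on the threshold: it was -7 when a −log10 q of 2 or more was required and 0 with equal numbers of peaks. They spanned a region up to 549.6 kb upstream and 239 kb downstream of the gene (chr13:5861489-5870393), and 7 of the lysine and 8 of the PBS peaks were shared. Their summed width was 4695 bp in lysine and 5943 bp in PBS. A PBS peak among them, 1185 bp wide and 56.6 kb upstream, overlapped a lysine peak of 2425 bp that was not distal. The lysine number and summed width leave that wider lysine peak out, so they do not give the order of the 2 libraries for the whole region. Runx1, a haematopoietic transcription factor (chr16:92601466-92826074), had 8 in lysine and 6 in PBS, all but 1 of the lysine peaks and all of the PBS peaks shared. A peak 41.1 kb upstream of it was among the strong ones, with a fold of 8.17 in lysine and 7.56 in PBS. At Runx1 the lysine peaks covered 4270 bp and the PBS peaks 5582 bp. The difference of 2 peaks was 0 when a −log10 q of 2 or more was required. The single PBS peak of 2920 bp stood opposite a pair of smaller lysine peaks there.

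Btg1, an antiproliferative gene (chr10:96617001-96622813), had different distal peaks called on one side in the lists as deposited. Upstream it had 5 lysine and 4 PBS peaks, of which 3 in each list were shared. Downstream it had 0 distal lysine peaks and 5 distal PBS peaks, the strongest with a fold of 6.06 at 33.3 kb. The lysine list was not empty on that side. A lysine peak that was not distal lay 4.33 kb from the PBS peak at 10.1 kb. The difference over both sides, lysine minus PBS, was -4 as deposited, -2 when a −log10 q of 2 or more was required and -1 with equal numbers of peaks. Trib1, a pseudokinase that directs C/EBP alpha to degradation, had 6 in lysine and 7 in PBS, 5 of them shared in each. The site that was its most enriched in PBS measured 341 bp with a fold of 4.13 in lysine and 595 bp with a fold of 9.7 in PBS, each within its own list. The highest fold of a lysine peak next to Trib1 was 6.64, at another site. Alkbh8, a tRNA-modifying enzyme, had 7 in lysine and 7 in PBS, all in 1 stretch far upstream.

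**Figure D4:**
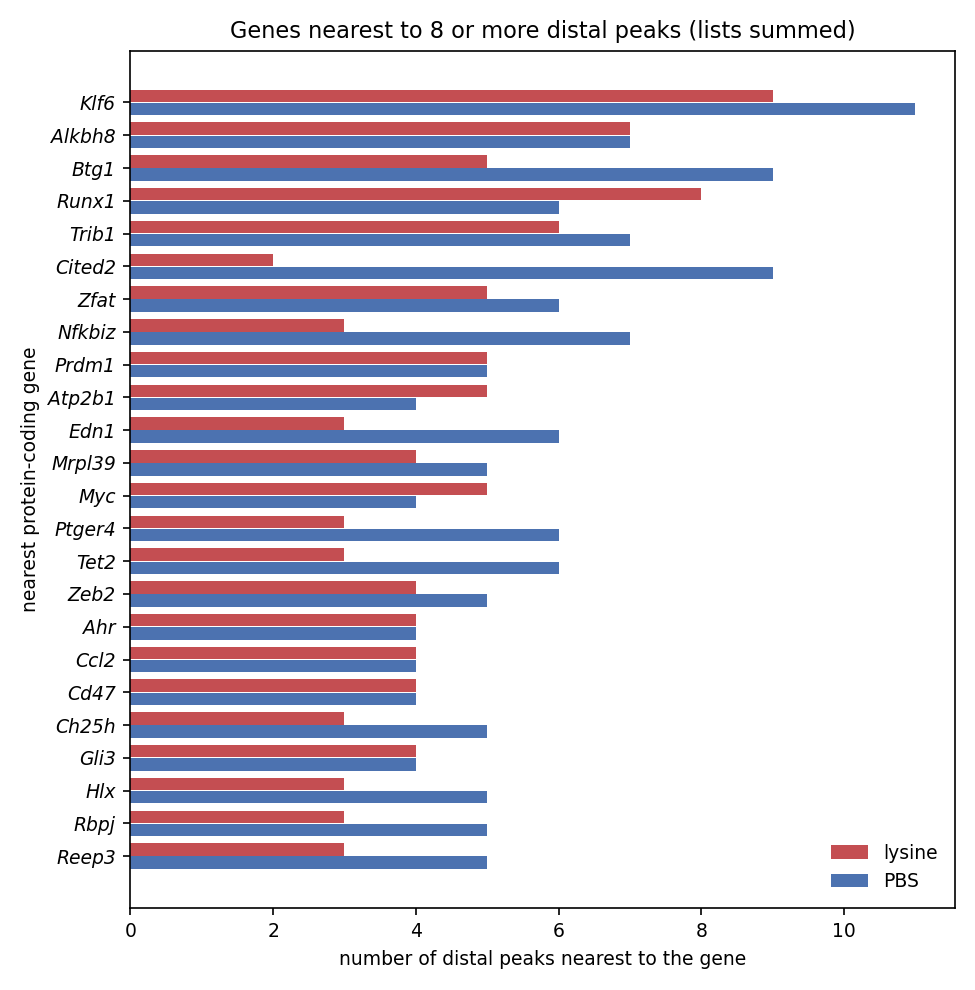
Number of distal peaks (horizontal axis, from 0) for which a protein-coding gene (vertical axis) is the nearest, for genes with 8 or more over both lists, lysine (red) above PBS (blue). Klf6 has the most with 9 in lysine and 11 in PBS. Runx1 has 8 in lysine and 6 in PBS, and Btg1 has 5 in lysine and 9 in PBS.

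The Alkbh8 stretch stands apart from the other groups of distal peaks. It runs over chr9:3000110-3038191, the first assembled bases of the chromosome, 297 kb to 332 kb from the gene. There 12718 bp were covered in lysine and 7662 bp in PBS, the reverse of the order for distal peaks at large. The 7 lysine peaks had widths of 2884, 867, 274, 3568, 1219, 731 and 3175 bp along the chromosome, and 6 of them were shared. The 7 PBS peaks had widths of 3311, 860, 303, 1215, 505, 1193 and 275 bp, and all 7 were shared. Peaks in the first assembled bases of any chromosome (up to 3.2 Mb) numbered 9 in lysine and 10 in PBS and held 2.56% of the distal length in lysine and 1.4% in PBS. Without them the covered length ratio was 0.717. Whether reads map uniquely there was not tested.

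Most distal sites stood alone, and some lay in groups. Joined over gaps of up to 12.5 kb, the peaks of both lists formed 1615 groups with 1908 separate sites, 706 groups with peaks of both lists, 306 of lysine alone and 603 of PBS alone. Among the 243 groups of 2 or more sites, 203 (83.5%) held both lists, compared with 503 of 1372 groups of 1 site (36.7%). A group of more sites has more chances to hold both. After the chromosome 9 stretch the group with the most peaks lay within 30.5 kb of Ccl2, a chemokine that recruits monocytes (chr11:82004811-82023116), with 4 lysine and 4 PBS peaks, all 8 shared. They measured 314, 536, 449 and 410 bp in lysine and 365, 582, 1537 and 627 bp in PBS. In lysine no peak lay on the Ccl2 body, and in PBS 1 peak reached 91 bp of it. Another 8 groups tied at 6 peaks, 3 from each list, next to Ccr1, Mrpl39, Myc, Trib1, Gm38821, Gli3, Cdc42se2 with Lyrm7, and Cebpb. The group next to Gli3 covered 1587 bp in lysine and 1400 bp in PBS, and these peaks lay on the transcribed pseudogene B230303A05Rik.

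Hand-made lists of genes of dendritic cell biology were then followed, whose choice was made with earlier results of these data known. Of 44 transcription factor genes of dendritic cells and macrophages 17 were nearest to a distal peak, of 32 immediate early genes 16, and of 32 genes of inflammatory signalling and its inhibitors 14. These are 38.6%, 50% and 43.8%, against 6.02% of all protein-coding genes, and 47.2%, 61.5% and 50% of those with territory, against 10.4%. Of 45 surface molecules 12 were nearest (26.7%), and of 34 cytokines and chemokines 7 (20.6%). Peaks per Mb of the territory of these 5 lists ran from 6.11 to 12.9 in lysine and from 5.3 to 17.6 in PBS, against 1.07 in lysine and 1.41 in PBS over all genes. The transcription factor genes had 45 lysine and 39 PBS distal peaks, over 20.2 kb in lysine and 21.4 kb in PBS. Immediate early genes had 32 lysine and 36 PBS peaks, signalling genes 19 lysine and 26 PBS peaks, surface molecules 16 lysine and 18 PBS peaks, and cytokines 12 lysine and 9 PBS peaks. Genes of other lineages taken as silent had none: 0 of 38 were nearest to a distal peak, but with 1.5 Mb of territory the mean density would have placed only 1.6 lysine and 2.11 PBS peaks there.

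The 45 list genes nearest to 2 or more distal peaks went both ways between the libraries. Lysine peaks were more than PBS peaks at 14, fewer at 11 and equal at 20, and the lysine peaks covered less at 27 and more at 18. Over all 1244 genes nearest to a distal peak they were more at 277, fewer at 550 and equal at 417. That base includes 553 genes with a single peak, which cannot be equal, so it does not match the 45. Whether list genes differ from other genes in direction was not tested. A lysine peak lay on the body of 34 of them and a PBS peak on 35. Such peaks lay on 51.7% of all genes nearest to a lysine distal peak and on 56.1% of those nearest to a PBS distal peak. For genes nearest to 2 and to 3 or more distal peaks of a list, the shares were 61.3% and 60.7% in lysine. In PBS they were 60.9% and 64.4%. The 45 were picked by peaks of both lists summed, so neither base matches them fully.

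Among the transcription factors Prdm1, the repressor Blimp-1, had 5 lysine and 5 PBS peaks up to 174 kb upstream, 4 of each shared, although its body had no peak in either library. Zeb2 had 4 lysine and 5 PBS peaks, with 4 shared in each, most of them on the non-coding gene Vis1. Ahr, the aryl hydrocarbon receptor, had 4 lysine and 4 PBS peaks, all shared, and Cebpb, a factor of myeloid differentiation, 4 lysine and 3 PBS peaks. Klf4 had 3 lysine and 3 PBS peaks with none shared, spread between 38.2 and 428 kb from the gene. Mef2c was the plainest case of lysine alone, with 4 lysine peaks and 0 PBS peaks, 262 to 620.2 kb upstream and of low fold (3.48 to 4.12), of which 2 remained when a −log10 q of 2 or more was required. Id2, needed for a subset of dendritic cells, had 2 lysine and 3 PBS peaks, and Runx3 had 3 lysine and 2 PBS peaks. Bcl6 had 2 in each list, Bhlhe40 and Ets2 each had 2 lysine peaks and 1 PBS peak, and Gfi1 had 1 in each list. Peaks that agreed in place could still differ in width, in either direction. The shared Prdm1 peak at 174 kb was 304 bp in lysine and 927 bp in PBS, and that at 163 kb was 534 bp in lysine and 283 bp in PBS. Both gaps are large beside the median difference of -30 bp (quartiles -125 and 64.75) over the 730 distal pairs.

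Immediate early genes beside Klf6 and Btg1 included Myc, with 5 lysine and 4 PBS peaks, all 338 kb or more from the gene and as far as 881 kb. Atf3, a stress-induced repressor, had 3 lysine and 4 PBS peaks within 47.2 kb upstream, 3 of each shared. Dusp6, a phosphatase of ERK, had 0 lysine and 3 PBS peaks. Fosl2 had 2 lysine peaks and 1 PBS peak, and Egr2 and Klf2 had 1 in each list.

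Inflammatory signalling genes differed in both directions. Tnfaip3 had 1 lysine peak and 6 PBS peaks, the largest difference among the list genes in the lists as deposited. With a −log10 q of 2 or more required it was -4, lysine minus PBS, smaller than that of Klf6. The lysine peak of 507 bp, 57.0 kb downstream, overlapped a PBS peak of 663 bp. The other PBS peaks lay 11.2, 28.5, 46.7 and 79 kb upstream and 69.2 kb downstream, with folds from 3.56 to 5.43, and 1 of them overlapped a lysine peak that was not distal. On the Tnfaip3 body itself 2 peaks were called in each library, over 930 bp in lysine and 1239 bp in PBS. Nfkbiz, which encodes a nuclear IkB protein, had 3 lysine and 7 PBS peaks, the 3 lysine peaks all shared. Bcl2l11, which encodes the apoptosis inducer Bim, went the other way with 5 lysine and 2 PBS peaks, of which 1 in each was shared. The 4 unshared lysine peaks lay 64.0 to 125 kb downstream, with folds of 3.86 to 4.24. Ptgs2, the inducible cyclooxygenase, had 3 lysine peaks and 1 PBS peak, a difference of 2 that was 1 when a −log10 q of 2 or more was required. Map3k8 had 2 lysine peaks and 1 PBS peak, Pde4b 1 lysine peak and 2 PBS peaks, and Rgs2, Socs2 and Socs3 had 1 in each list.

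**Figure D5:**
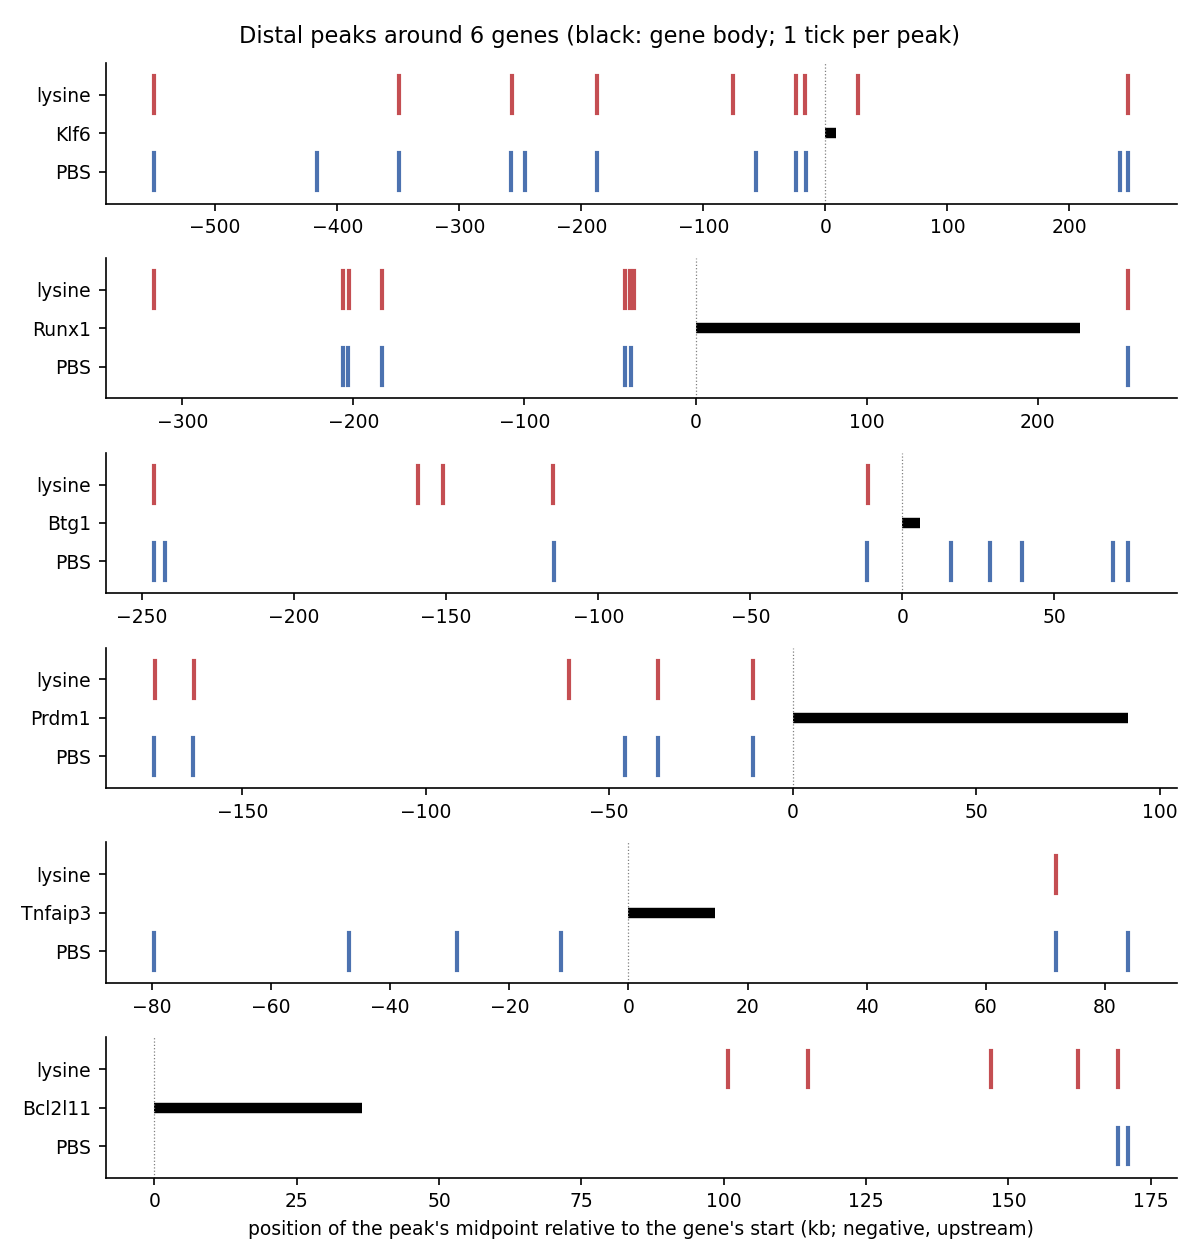
Midpoints of distal peaks (1 tick each) relative to the start of their nearest gene (kb, negative upstream) for 6 genes, lysine (red) above and PBS (blue) below the gene body (black bar). Klf6, Runx1 and Prdm1 show mostly matching ticks, Btg1 has 5 PBS ticks downstream and no lysine tick there, and Tnfaip3 has 1 lysine and 6 PBS ticks, while Bcl2l11 has 5 lysine and 2 PBS ticks.

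Chemokine receptor genes led the surface molecules. Cxcr4 had 2 lysine and 5 PBS peaks, with 2 of each shared, and a PBS peak of 687 bp 17.3 kb downstream had no lysine partner. In the cluster of receptor genes on chromosome 9, Ccr1 had 3 in each list and Ccr2 had 1 in each list. Cd83, a maturation marker, had 2 lysine peaks and 1 PBS peak, and Csf2ra, the receptor chain for the growth factor GM-CSF, had 1 lysine peak and 2 PBS peaks. Adgre1, Itga4, Pdcd1lg2 and Ptprc had 1 in each list, all shared. At Pdcd1lg2, a ligand of the inhibitory receptor PD-1, the lysine peak was 431 bp and the PBS peak 1599 bp.

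Of the cytokines, Il1b had 2 lysine and 2 PBS peaks at the same places, 26.0 kb downstream (301 bp in lysine and 436 bp in PBS) and 39.2 kb upstream (332 bp in lysine and 399 bp in PBS). The Il1b body had no peak in either library. Il6 had 2 lysine peaks and 1 PBS peak, and its shared peak 64.6 kb upstream had a fold of 6.8 in lysine and 5.26 in PBS. Il12b had 1 in each, at different places, 50.1 kb upstream in lysine and 21.8 kb upstream in PBS. Vegfa had 1 in each, at the same place.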

How the data were processed

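Paired-end ChIP-seq libraries of H3K79me2 and input were made, per the labels' protocols. MACS2 2.1.2, Bowtie2 2.3.4.1, Trimmomatic 0.38, cutadapt 1.18, ChIPseeker, Picard, FastQC and the build GRCm38 are listed in the submitters' processing notes, which assign no roles. How peaks were called and against which control is not stated, and the inputs were not analysed here. Peaks were deposited per sample as broad and gapped lists without a header. The authors' columns give a score, a fold enrichment (linear ratio), −log10 p and −log10 q per peak, of which the score and −log10 p were not used. The lowest −log10 q is 1.32 in lysine and 1.37 in PBS. Depth per sample is unknown, so a peak missing from a list can be a matter of depth.

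Genes came from RefSeq tables of GRCm38.p6, the build of the lists. Distance runs from the peak's edge to the gene body, and a tie would keep only the first gene. A group whose peaks differ in nearest gene names both. Overlap by at least 1 bp counts as shared. Peaks of the gapped lists were counted by narrow blocks of 2 bp or more. The members, the 6 gene lists (227 entries) and the rules were chosen with earlier results of these data known. Named are, per list, the 5 widest, 5 most enriched and 5 widest unpartnered distal peaks, the 3 farthest, and those just inside and outside 10 kb. Also named are the 5 genes nearest to the most distal peaks, the 5 groups with the most peaks with their ties, and every list gene nearest to 2 or more. A few items that these rules name are not reported here. Syp and Gata1 are not on chromosomes 1 to 19 and were left out of the list counts. Alternatives changed the −log10 q minimum, list size, gene set, distance, overlap, joining distance and chromosome starts. Computations ran in Python 3.11.15 with pandas 2.3.3, scipy 1.17.1, numpy 2.4.6 and, for figures, matplotlib 3.10.9. Overlaps were checked against bedtools 2.31.1 with 0 differences, and the scripts were tested on simulated data.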

Additional observations from a re-analysis of the deposited data

How the results depend on the processing

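Of 66 values of the main results recomputed under alternatives, 51 stayed within counting error or within 1.5 times of a count, and 15 moved. With a −log10 q of 5 as the minimum there were 273 distal lysine peaks and 421 distal PBS peaks. They numbered 723 in lysine and 944 in PBS at more than 25 kb from genes, and 436 in lysine and 561 in PBS at more than 50 kb, fewer by construction. With a −log10 q of 5 or more the shared share of PBS distal peaks was 41.8%. At more than 50 kb it was 60.6% in lysine. With an overlap of at least 0.5 of the peak it was 60.2% in lysine and 44.2% in PBS. With equal numbers of peaks the shared shares were 58.7% in lysine and 55.6% in PBS, the PBS median width 436 bp, the share of PBS nearest genes with a peak on the body 51.3%, and the covered length ratio 0.898. The lysine list had fewer distal peaks than the PBS list under each alternative that changes the lists or the rule, at 0.648 to 0.947 of the PBS number. For named genes, 96 values were recomputed under alternatives chosen after seeing the data. In 78 the sign of the difference, or a difference of 0, was kept, though not always the size. Many of these 78 were differences of 0 that stayed 0, as at Ccl2, and have no direction. Another 17 went to or from 0 and 1 turned: Myc had 1 lysine peak more than PBS, and a difference of -1 when a −log10 q of 2 or more was required. The cause was not tested.

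There are no replicates, so no difference has an error between libraries. Depth is unknown, and a peak called in 1 library alone is not shown to be absent from the other. No paired analysis was possible because each condition has 1 H3K79me2 library and no test was made.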

Other observations

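Several other genes with many distal peaks stood outside the lists and were chosen after their values were seen. None of those named below had more lysine than PBS peaks, but other genes outside the lists did. Kcnj2 and Tmc1, for example, each had 4 lysine and 2 PBS peaks. Of those named below, only Cited2 was recomputed under alternatives. Its difference, lysine minus PBS, was -7 as deposited, -7 when a −log10 q of 2 or more was required and -5 with equal numbers of peaks. Cited2, which encodes a partner of the coactivators CBP and p300, had 2 lysine and 9 PBS distal peaks. Both lysine peaks, 501 and 375 kb upstream, had a PBS partner, and the other PBS peaks were found from 31.1 to 1086 kb upstream. Tet2, an enzyme that oxidises methylcytosine, had 3 lysine and 6 PBS peaks. All 3 lysine peaks were shared, and a shared site was 526 bp wide in lysine, 81.3 kb upstream, and 1814 bp wide in PBS. Kctd12 had 1 lysine peak and 6 PBS peaks, all downstream. Hlx had 3 lysine and 5 PBS peaks, with all 3 lysine peaks shared. Ptger4, a prostaglandin E2 receptor, had 3 lysine and 6 PBS peaks, and Ch25h, which makes 25-hydroxycholesterol, had 3 lysine and 5 PBS peaks without a peak on its body in either library. Cd47, the ligand that restrains phagocytosis, had 4 in each list, and the covered length was 1559 bp in lysine and 2847 bp in PBS. Edn1, which encodes endothelin 1, had 3 lysine and 6 PBS peaks. Reep3 had fewer peaks but more length in lysine, 3 peaks over 3978 bp against 5 peaks over 2227 bp in PBS.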
